A study of Homo sapiens with 12 samples.

Results

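The comparison described here sets HEYA8 ovarian cancer cells that express betaglycan without glycosaminoglycan (GAG) chains against HEYA8 cells that carry the control vector. Its members are the 3 RNA-seq libraries labelled ∆GAG-BG and the 3 labelled control vector, taken by their labels, of 12 libraries in the whole series. The other 6 libraries express betaglycan with a single GAG attachment site, S534A (CS-BG) or S545A (HS-BG), and enter here only through the shared estimate of the spread. HEYA8 is an established line labelled as high grade serous ovarian carcinoma. In ∆GAG-BG both attachment serines of HA-tagged human betaglycan are changed to alanine, and the constructs were delivered with the lentiviral vector pHIV-dTomato and the infected cells sorted for dTomato, so each group is 1 sorted population and not a set of clones. All cells were unstimulated, in RPMI-1640 with 10% serum. Nothing says that the 3 libraries of a group came from separate cultures, so the p-values below measure only the spread between libraries.

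Betaglycan, encoded by TGFBR3, is the type III TGF-β receptor, a membrane proteoglycan with no kinase of its own. It binds TGF-β and inhibin ligands and hands TGF-β to the type II receptor TGFBR2, which then recruits the type I receptor TGFBR1 so that SMAD proteins are phosphorylated. Its ectodomain can be cut from the cell surface, and the soluble form traps ligand, while TIMP3 is a matrix-bound inhibitor of the metalloproteinases that cut membrane proteins. The question put to the RNA was which genes, proteases and their inhibitors above all, differ with the loss of the chains.

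The stretch of the TGFBR3 coding sequence that holds both attachment sites is shown because it is the part of the gene that sets ∆GAG-BG apart from the unmutated receptor. It is the reference sequence of GENCODE 29 on GRCh38, minus strand, from codon 530 to codon 549 of 851, at chr1:91716628-91716687 in exon 11 of 17. The capitals are the codons of serine 534 (chr1:91716673-91716675) and serine 545 (chr1:91716640-91716642). Each is followed by a ggt codon for glycine, the pair that xylosyltransferase reads when it starts a chain.
TGFBR3 coding stretch: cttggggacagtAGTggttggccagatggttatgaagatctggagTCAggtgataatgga
The counts sum reads over all exons of the gene, so they separate neither mutated from reference codons nor construct from endogenous transcripts.

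Gene levels are given as CPM, the counts of a gene per 1000000 counts of its library, scaled by TMM, edgeR's correction for composition. The 6 libraries held 21241205 to 29246939 counts, so a gene without a count may reach 0.104 to 0.141 CPM (3 counts), a limit that covers counting error only. Of 56269 genes in the table, 16069 passed the filter on low counts and were tested. PAX8, a Müllerian lineage factor, stood at 193 to 295 CPM and the keratins KRT7, KRT8 and KRT18 at 547 CPM or more in all 6 libraries, whereas MUC16, CDH1 and FOLR1, other markers of ovarian carcinoma, held 0 counts in all 6. No leukocyte marker of 6 was above 4 counts, nor the erythroid marker HBB above 2. The fibroblast marker DCN held 0, but 3 of 6 fibroblast markers passed the filter. Among them COL1A1 stood at 8.48 to 17.7 CPM. Of the endothelial markers, CDH5 (VE-cadherin) stood at 320.2 to 394 CPM and VWF was also present. In bulk RNA, fewer cells of a type and less RNA per cell cannot be told apart.

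TGFBR3 was examined first because it checks the labels. It stood at 259.6, 20.3 and 21.4 CPM in ∆GAG-BG libraries 1, 2 and 3, and at 15.9, 259 and 259 CPM in control vector libraries 1, 2 and 3. Library 1 of each group follows its label, with more TGFBR3 in the cells that received betaglycan. Libraries 2 and 3 go against theirs, since the libraries labelled control vector hold more TGFBR3 than those labelled ∆GAG-BG. The difference, ∆GAG-BG minus control vector on the log2(CPM + 1) scale, was 3.95 between the libraries numbered 1, -3.61 between those numbered 2 and -3.54 between those numbered 3. Over the 3 against 3 libraries the log2 fold change was -0.82 (standard error 0.973, unadjusted p = 0.414 by edgeR's quasi-likelihood test), with a two-sided exact permutation p = 1. The smallest p that 3 against 3 libraries can give in that test is 0.1. All labels are used as given, and every direction below that rests on libraries 2 and 3 carries this limit.

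**Figure D1:**
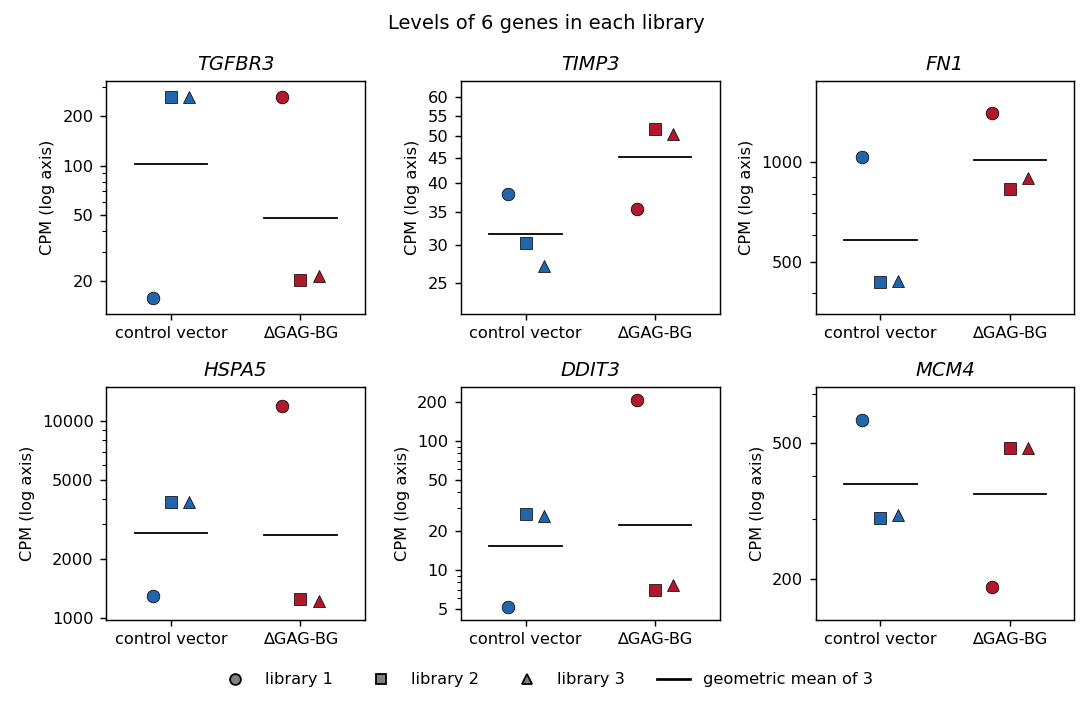
TMM-scaled CPM on a log axis for TGFBR3, TIMP3, FN1, HSPA5, DDIT3 and MCM4 in the 3 control vector (blue) and 3 ∆GAG-BG (red) libraries, with circles, squares and triangles for libraries 1, 2 and 3 and lines at geometric means. In each panel libraries 2 and 3 of a group lie together and library 1 lies apart, and the groups overlap for all 6 genes.

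With the labels as given, no gene passed the adjusted test between ∆GAG-BG and control vector cells, and those with the smallest unadjusted p were weakly expressed. With edgeR, 0 of 16069 genes (0.0%) passed an adjusted p of 0.05, and the lowest adjusted p was 1.00. DESeq2 also called 0. At an unadjusted p under 0.05, edgeR gave 140 genes (0.871%), 98 higher (0.61%) and 42 lower (0.261%) in ∆GAG-BG, and DESeq2 gave 75. Where no gene differs, a share of 0.05 of all genes would fall under this threshold, so the 140 genes are no excess. The 2 groups did not overlap for 783 genes (4.87%), of which 440 were higher (2.74%) and 343 lower (2.13%). This share too is no excess, since exchangeable libraries, 3 against 3, would not overlap for a share of 0.1. In simulated counts for all 12 libraries, with 200 of 15819 genes changed 2-fold in ∆GAG-BG, the edgeR test called 85.0% of the changed genes. The changed genes were drawn only from those with higher counts. Each simulated library was drawn independently around its group mean, without the shift of library 1 described below. The share therefore does not carry over to weakly expressed genes or to libraries that shift in this way.

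Of the 140 genes, 126 lay below a mean of 10 CPM, although 9279 of the tested genes lie at or above it, and of these higher-expressed genes 11 were higher and 3 lower. The median size of the log2 fold change among the 140 was 0.72.

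**Figure D2:**
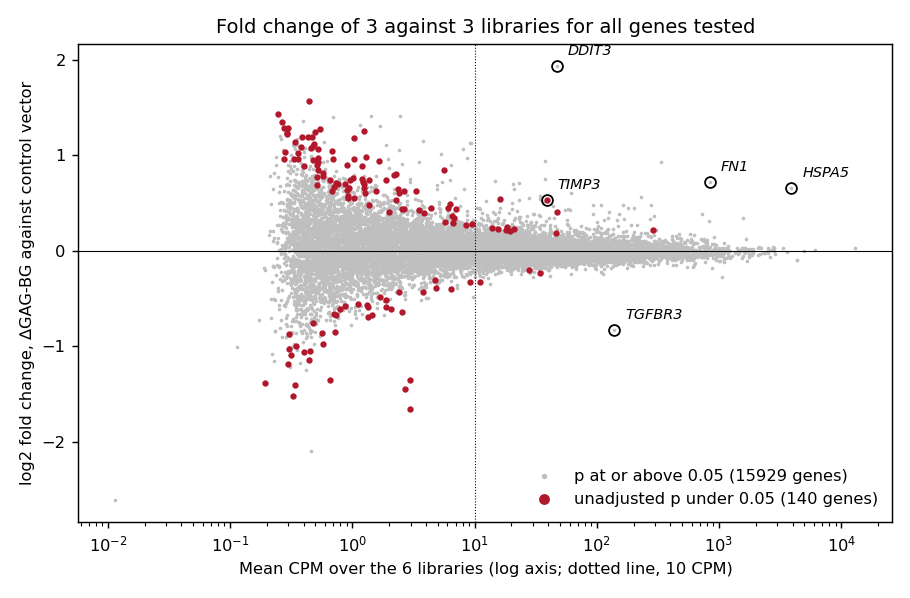
The log2 fold change of ∆GAG-BG against control vector for the 16069 genes tested, over the mean CPM of the 6 libraries on a log axis. Red points are the 140 genes with an unadjusted p under 0.05, most of them left of the dotted line at 10 CPM, and circled genes are described in the text.

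TIMP3, the inhibitor that the study followed up, stood at 35.5, 51.8 and 50.4 CPM in the ∆GAG-BG libraries and at 38.1, 30.2 and 27.1 CPM in the control vector libraries. It was higher in ∆GAG-BG libraries 2 and 3 than in every control vector library, while ∆GAG-BG library 1 lay below control vector library 1, so the groups overlap. The means were 45.9 ± 9.03 CPM (SD, n = 3) and 31.8 ± 5.67 CPM (SD, n = 3). On the log2 scale the fitted difference was 0.53 with a standard error of 0.216, and edgeR gave an unadjusted p of 0.0305 and an adjusted p of 1.00. The two-sided exact permutation p was 0.2. By replicate number the difference was -0.10, 0.76 and 0.87 on the log2(CPM + 1) scale, so the numbers in which TIMP3 is higher under the ∆GAG-BG label are the ones in which TGFBR3 goes against that label.

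Of 9 metalloproteinase inhibitors on the list, 6 were tested. TIMP3 was the 1 member with an unadjusted p under 0.05, beside 0.871% of all genes. With so few tested, the lack of a call is no result about the others. TIMP2 stood at 559, 477 and 478 CPM in ∆GAG-BG and at 407, 546 and 543 CPM in control vector, a log2 fold change of 0.02. TIMP1 had a log2 fold change of 0.15 and RECK, a membrane-anchored inhibitor, one of 0.00. For each of these 3, as for TIMP3, the libraries numbered 1 differed in the opposite direction to those numbered 2 and 3.

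Of the metalloproteinase and adamalysin lists, ADAMTS10 was the 1 member with an unadjusted p under 0.05, beside 0.871% of all genes. None of 7 matrix metalloproteinases tested of 23 on the list had an unadjusted p under 0.05, none of 11 ADAM sheddases tested of 16 did, and of 13 ADAMTS proteases tested of 19 ADAMTS10 did. ADAMTS10 stood at 8.12, 7.34 and 6.73 CPM in ∆GAG-BG and at 5.95, 4.85 and 5.01 CPM in control vector, with no overlap and a log2 fold change of 0.49 (unadjusted p of 0.0429 by edgeR). ADAMTS1, which cleaves matrix proteoglycans, stood at 107, 105 and 108 CPM against 133, 115 and 117 CPM, also with no overlap and with a log2 fold change of -0.19, and ADAMTS18, at about 1 CPM, did not overlap either. Of the 13, 1 was higher and 2 were lower without overlap, beside 2.74% and 2.13% of all genes. MMP14, the membrane-type metalloproteinase, stood at 438.1 to 527.7 CPM in ∆GAG-BG and 410.7 to 437.6 CPM in control vector, with a log2 fold change of 0.16. It was the 1 of 7 matrix metalloproteinases whose groups did not overlap, by a narrow margin, beside 2.74% of all genes higher. ADAM8, a sheddase of leukocytes and tumour cells, stood at 42.5, 13.9 and 14.8 CPM against 13.3, 17.8 and 19.2 CPM, where ∆GAG-BG library 1 is the highest by far. ADAMTS3 (log2 fold change 0.04), ADAM12 (-0.06), ADAMTS9 (-0.19) and PRSS36 (-0.47) overlapped between the groups, as did ADAMTS17, at 2.54, 0.929 and 0.948 against 1.00, 1.74 and 1.72 CPM. MMP3, MMP23B, PRSS48, TMPRSS6 and the pseudogene TMPRSS11CP did not pass the filter, with at most 10 counts in any of the 6 libraries. Among 15 pericellular serine proteases and inhibitors tested of 32, none had an unadjusted p under 0.05.

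The type I and type II TGF-β receptors differed little in the 3 against 3 fit. Of 14 superfamily receptors 12 were tested, and none had an unadjusted p under 0.05. TGFBR2 stood at 692, 484 and 498 CPM in ∆GAG-BG and 621, 512 and 511 CPM in control vector. TGFBR1 stood at 40.3 to 47.4 CPM and 45.4 to 46.8 CPM. The log2 fold changes were 0.02 (standard error 0.139) and -0.03 (standard error 0.0811). Endoglin (ENG), the co-receptor most like betaglycan, stood at 595 to 608 CPM against 581 to 662 CPM. Of 22 ligands and binding proteins tested of 34, and of 17 SMADs and regulators, none had an unadjusted p under 0.05, although SMAD4, the common partner of receptor SMADs (42.6 to 43.6 CPM against 40.7 to 42.3 CPM), and the inhibitory SMAD7 (6.50 to 7.94 CPM against 5.32 to 6.41 CPM) did not overlap between the groups, 2 of 17 beside 2.74% of all genes.

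At 0.871% of all genes with an unadjusted p under 0.05, a short list that holds none is no result about its members. None of 26 TGF-β target genes tested of 28 had an unadjusted p under 0.05, and their median log2 fold change was 0.06, beside 0.00 over all genes tested. FN1, which encodes fibronectin, had the smallest p of the list. It stood at 1412, 829.8 and 896 CPM in ∆GAG-BG and 1035, 434 and 437 CPM in control vector, higher under the ∆GAG-BG label in all 3 numbers but overlapping between groups through control vector library 1. Its log2 fold change was 0.72 (standard error 0.330, unadjusted p = 0.0516 by edgeR). Of 9 BMP targets tested of 10 none had an unadjusted p under 0.05, and ID1, an inhibitor of basic helix-loop-helix factors, stood at 19.1, 66.6 and 61.3 CPM against 44.2, 45.1 and 45.7 CPM.

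The enzymes that build and edit GAG chains were also close. None of 18 linker and polymerase enzymes tested of 20, 10 heparan sulfate modifying enzymes of 19 or 10 chondroitin sulfate modifying enzymes of 12 had an unadjusted p under 0.05, with median log2 fold changes of 0.02, 0.02 and 0.00. None of 19 proteoglycan core proteins tested of 29 had an unadjusted p under 0.05 either. That list holds TGFBR3 itself, with differences of 3.95, -3.61 and -3.54 on the log2(CPM + 1) scale for numbers 1, 2 and 3. Small medians over 3 against 3 libraries can hold opposite differences. Heparan sulfate modifying enzymes had medians of -0.21, 0.14 and 0.14 on the log2(CPM + 1) scale for numbers 1, 2 and 3. Of the 10, 5 were lower between the libraries numbered 1 and higher between both other pairs, beside 26.2% of all genes. None of 24 Wnt receptors and targets, 21 FGF and ERK feedback genes, 11 regulators of epithelial-mesenchymal transition and cadherins or 18 collagen chains tested had an unadjusted p under 0.05.

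The 12 higher and 12 lower genes with the smallest unadjusted p are named as they came out of the fit. All 24 lay below a mean of 10 CPM and 11 below 1 CPM, with p between 0.000592 and 0.0148 by edgeR, and the groups did not overlap for 23. TSPOAP1, a scaffold protein of presynaptic sites, had the smallest p. It stood at 1.50, 1.44 and 1.17 CPM (33, 31 and 26 counts) in ∆GAG-BG and 0.657, 0.660 and 0.783 CPM (19, 14 and 20 counts) in control vector, a log2 fold change of 0.96. Its exons overlap an antisense gene, and since the strand setting of the counting is not stated its reads cannot be told from that gene's. BDKRB2, the bradykinin B2 receptor, stood at 2.22, 1.35 and 1.67 CPM against 0.588, 0.613 and 0.979 CPM, with a log2 fold change of 1.26. C1QL3, a secreted C1q-like synaptic protein, stood at 2.63, 3.11 and 2.94 CPM against 1.80, 1.93 and 1.80 CPM. GUCY1A2, a subunit of soluble guanylate cyclase, stood at 1.50, 1.77 and 1.94 CPM against 0.726, 0.848 and 1.06 CPM. The other 8 higher genes were BCO2, SPATA25, LRRC37A3, MTX1P1, OR7E128P, RP11-706O15.5, RP11-448G15.3 and CITF22-92A6.1, of which MTX1P1 and OR7E128P are pseudogenes that can share reads with their parent families.

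Of the 12 lower genes, KBTBD7 is the 1 that GENCODE 29 annotates as protein-coding, and 5 have no entry there under the table's symbol. KBTBD7, an adaptor of a cullin ubiquitin ligase, also had the highest level. It stood at 5.71, 5.53 and 5.46 CPM in ∆GAG-BG and 7.58, 7.16 and 7.24 CPM in control vector, a log2 fold change of -0.40 (standard error 0.125, unadjusted p = 0.00791 by edgeR). The 3 numbers gave nearly the same difference, -0.35, -0.32 and -0.35. An opposite-strand gene overlaps its exons, as PTER does those of C1QL3, and a same-strand gene overlaps BDKRB2. AGPAT4-IT1, a transcript named for an intron of AGPAT4 and with the smallest p of the lower genes, stood at 2.04, 2.00 and 1.90 CPM against 3.25, 2.73 and 3.25 CPM. LEF1-AS1, antisense to the Wnt effector LEF1 and overlapping its exons, held 2, 5 and 5 counts against 15, 13 and 9. RMRP, the RNA of the mitochondrial RNA processing ribonuclease, was the 1 gene that overlapped, at 1.63, 1.25 and 1.40 CPM against 3.98, 6.46 and 1.37 CPM. The remaining 8 were RP11-133N21.10, CTD-2066L21.3, AC083843.4, CH507-513H4.5, RP13-554M15.2, C9orf147 and the pseudogenes SIRPAP1 and EIF3FP3.

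**Figure D3:**
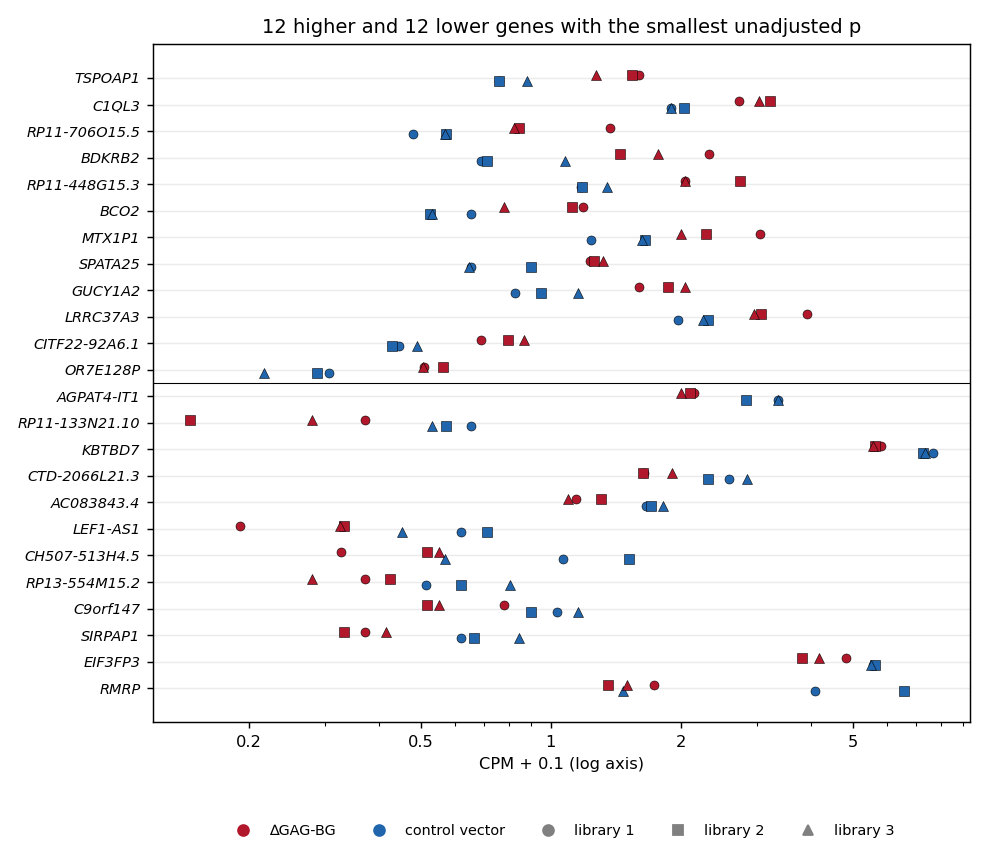
CPM + 0.1 on a log axis in each ∆GAG-BG (red) and control vector (blue) library for the 12 higher (above the line) and 12 lower genes with the smallest unadjusted p, with symbols for the library number. Each of these genes lies below 10 CPM, and the colours separate for all but RMRP.

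Among genes at 10 CPM or more, some differed in the same direction in all 3 numbers. Over all genes, the 3 differences had 1 sign for 2429 (15.1%), above 0 for 1307 (8.13%) and below 0 for 1122 (6.98%). The 10 higher genes with the largest smallest-of-3 difference were FN1, FAM20C, CXCL1, PCDH1, TMEM158, PLPP3, IGFBP7, SEMA3C, SIRPB1 and LTBP1. They were chosen on these differences, so the values are a description. FAM20C, the Golgi kinase of secreted proteins, stood at 67.3, 46.9 and 46.3 CPM against 49.0, 36.5 and 35.1 CPM. PCDH1, a protocadherin, stood at 17.2, 18.5 and 18.6 CPM against 12.4, 13.8 and 14.7 CPM with no overlap. SEMA3C, a secreted semaphorin, stood at 27.8, 31.6 and 31.7 CPM against 23.9, 21.8 and 24.9 CPM, also with no overlap. The chemokine CXCL1 stood at 57.7, 23.9 and 21.9 CPM against 45.8, 15.7 and 17.3 CPM, where library 1 is the highest in both groups. The 10 lower genes chosen the same way differed by less. FAM196B had differences of -0.23, -0.21 and -0.23, and AC156455.1 of -0.22, -0.28 and -0.39, and neither overlapped between the groups.

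The larger differences ran in opposite directions in different library numbers. A difference above 0 was found for 51.2% of the genes tested between the libraries numbered 1, 50.5% between those numbered 2 and 51.0% between those numbered 3. For 8350 genes (52.0%) the difference between the libraries numbered 1 had the opposite sign to both the others. Between the libraries numbered 1, 203 genes were at least 2-fold higher in ∆GAG-BG (1.26%) and 136 at least 2-fold lower (0.846%). Between those numbered 2 the counts were 6 (0.0373%) and 15 (0.0933%), and between those numbered 3 they were 7 (0.0436%) and 10 (0.0622%). Each is 1 library against 1, so no test was made. Nothing says that libraries of the same number were prepared together, so the numbers serve here only as labels. Across the 9279 genes at 10 CPM or more, the differences had Pearson correlations of -0.75 (numbers 1 and 2), -0.74 (1 and 3) and 0.76 (2 and 3), given as a description, since genes share libraries and are not independent.

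Within each group library 1 stood apart from libraries 2 and 3, which were close to each other. Between ∆GAG-BG libraries 1 and 2, 386 genes differed by at least 2-fold, between 1 and 3, 383, and between 2 and 3, 0. In control vector these counts were 129, 124 and 4. The chi-square per degree of freedom of the counts was 1.95 between ∆GAG-BG libraries 2 and 3 and 1.43 between control vector libraries 2 and 3, against 28.2 to 61.3 for the other pairs within a group. Between the groups it was 70.0 for the libraries numbered 1, 10.5 for those numbered 2 and 10.7 for those numbered 3. ∆GAG-BG library 1 was nearer to control vector libraries 2 and 3 (33.6 and 37.3) than to ∆GAG-BG libraries 2 and 3 (60.6 and 61.3). Control vector library 1 was likewise nearer to ∆GAG-BG libraries 2 and 3 (15.3 and 15.5) than to control vector libraries 2 and 3 (28.2 and 30.4). Libraries 2 and 3 differed by more than sampling noise and were counted as separate libraries. So small an excess does not show that they came from separate cultures. If they did not, n = 3 overstates the number of independent cultures in a group.

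Of the 10 genes with the largest crossing in the direction of TGFBR3, which were TGFBR3, DDIT3, HSPA5, HERPUD1, DNAJB9, TNFSF15, SDF2L1, FICD, GDF15 and DNAJC3, 5 are on the list of the unfolded protein response (HSPA5, HERPUD1, DNAJB9, SDF2L1 and DNAJC3) and DDIT3 and GDF15 on that of the ATF4 response. In the unfolded protein response the sensors ATF6, ERN1 and EIF2AK3 raise chaperones when proteins misfold in the endoplasmic reticulum (ER). Of 28 ER chaperone and unfolded protein response genes tested of 29, 25 were higher in ∆GAG-BG between the libraries numbered 1 and lower between both other pairs, where 25.8% of all genes did so. Their median difference was 1.47, -0.54 and -0.62 on the log2(CPM + 1) scale for numbers 1, 2 and 3, beside 0.01, 0.00 and 0.00 over all genes, and 19 of the 28 were at least 2-fold higher between the libraries numbered 1. None had an unadjusted p under 0.05 in the 3 against 3 fit. The list was written with earlier results of these data known.

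HSPA5 (BiP), the main ER chaperone, stood at 11864, 1256 and 1228 CPM in ∆GAG-BG libraries 1, 2 and 3 and at 1290.4, 3878 and 3906 CPM in control vector libraries 1, 2 and 3. HERPUD1, which serves ER-associated degradation, stood at 1122, 99.9 and 99.9 CPM against 80.3, 302 and 310.4 CPM. DNAJB9, a BiP co-chaperone, stood at 45.5, 4.27 and 5.51 CPM against 4.74, 13.8 and 14.8 CPM. In each of these genes ∆GAG-BG library 1 is the highest, control vector libraries 2 and 3 are intermediate, and ∆GAG-BG libraries 2 and 3 and control vector library 1 are low. The 3 libraries with the higher levels are also the 3 with the higher TGFBR3, and the part of TGFBR3 in this was not tested. SDF2L1, DNAJC3 and FICD, which regulates BiP by AMPylation, had differences of 2.52, 2.28 and 2.14 between the libraries numbered 1 and of -1.13 to -0.94 between the other pairs. At the other end of the list, ATF6 (differences of 0.11, 0.02 and -0.02), SEC61B (0.04, -0.04 and 0.12) and DERL1 (-0.02, 0.04 and -0.01) differed little.

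The ER stress element is the promoter sequence bound by ATF6 with the factor NF-Y, and it was searched because genes of this response moved together between libraries. The motif, CCAAT and CCACG with 9 bases of any kind between them, on either strand, was sought in RefSeq promoters on GRCh38.p14, from 250 bases before to 50 after each start site. It was found at 7 of 26 genes of the list with a promoter (26.9%). The share was 16 of 10225 among genes tested (0.156%) and 25 of 27305 among all genes (0.0916%). It was found at 0 of 23 S-phase genes and 0 of 23 genes of the ATF4 response. The list was written by hand for this response, so its share is a description and was not tested. The 7 were CALR, CANX, CRELD2, HSP90B1, HSPA5, PDIA6 and XBP1. Among the 10 genes of largest crossing in the same direction, HSPA5 and FICD held it. A match is a description of the letters in this window and not of binding. The stretches below run 15 bases to either side of the match, with the fixed bases of the motif in capitals (CRELD2 and CALR hold it on the opposite strand).
HSPA5 promoter stretch: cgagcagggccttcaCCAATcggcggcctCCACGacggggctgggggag
FICD promoter stretch: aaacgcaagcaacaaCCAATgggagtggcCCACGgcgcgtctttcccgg
PDIA6 promoter stretch: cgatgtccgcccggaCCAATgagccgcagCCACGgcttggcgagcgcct
XBP1 promoter stretch: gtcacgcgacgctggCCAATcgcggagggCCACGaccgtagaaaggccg
CRELD2 promoter stretch: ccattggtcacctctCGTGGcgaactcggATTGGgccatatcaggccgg
CALR promoter stretch: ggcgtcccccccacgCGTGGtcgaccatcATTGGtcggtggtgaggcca
They lie at chr9:125241376-125241424 (minus strand), chr12:108515108-108515156 (plus), chr2:10812838-10812886 (minus), chr22:28800588-28800636 (minus), chr22:49918539-49918587 (plus) and chr19:12938369-12938417 (plus), in that order. Genes with the motif were not alike in size of difference. Between the libraries numbered 1 it was 3.20 for HSPA5, 2.14 for FICD and 1.97 for CRELD2, but 1.01 for XBP1, 0.90 for CALR and 0.56 for PDIA6.

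The ATF4 branch, the response of translation to stress and amino acid shortage, crossed in the same direction. Of 27 genes tested of 28, 25 were higher between the libraries numbered 1 and lower between both other pairs, beside 25.8% of all genes, with medians of 1.33, -0.32 and -0.34. DDIT3 (CHOP), a pro-apoptotic factor downstream of ATF4, stood at 208, 6.92 and 7.68 CPM in ∆GAG-BG and 5.12, 27.2 and 26.2 CPM in control vector. Its fitted log2 fold change of 1.94 (standard error 1.15, unadjusted p = 0.119 by edgeR) rests on ∆GAG-BG library 1, which is above every control vector library, while ∆GAG-BG libraries 2 and 3 are below control vector libraries 2 and 3. ASNS, asparagine synthetase, stood at 439, 134 and 127 CPM against 79.5, 213 and 221 CPM. ATF4 itself, which is regulated mainly in translation, stood at 736, 549 and 559.6 CPM against 537, 575 and 578 CPM. PSPH, an enzyme of serine synthesis, was close in all libraries, at 35.8 to 38.7 CPM.

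Genes of DNA replication crossed the other way. All 26 S-phase genes on the list were tested and lower in ∆GAG-BG between the libraries numbered 1 and higher between both other pairs, where 26.2% of all genes did so, with medians of -1.10, 0.49 and 0.46. MCM4, a subunit of the replicative helicase, stood at 189, 485 and 485 CPM in ∆GAG-BG and 585, 302 and 307 CPM in control vector. E2F1, which drives entry into S phase, stood at 16.2, 55.0 and 55.9 CPM against 51.6, 32.9 and 31.0 CPM. CDC25A, the phosphatase that activates cyclin-dependent kinases at that step, stood at 9.39, 28.9 and 24.7 CPM against 31.4, 15.3 and 14.1 CPM. The order of libraries is the reverse of that of HSPA5, with ∆GAG-BG library 1 lowest and control vector library 1 or ∆GAG-BG libraries 2 and 3 highest. CDT1, a licensing factor controlled by degradation, had differences of -0.16, 0.04 and 0.03. Of 26 genes of mitosis and G2/M, 21 crossed in the same direction as the S-phase genes, with smaller medians of -0.60, 0.14 and 0.11. MCM4, E2F1 and CDC25A, and with them FAM111B, WDR76, CLSPN, the histone genes HIST1H1C and HIST1H2BK, IGFBP3 and EDN1, were the 10 genes of largest crossing in this direction.

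Cholesterol and fatty acid synthesis crossed with the S-phase genes in 23 of 26 tested, with medians of -0.63, 0.25 and 0.26. INSIG1, which retains the SREBP complex in the ER, stood at 12.6, 68.2 and 66.4 CPM in ∆GAG-BG and 50.6, 52.0 and 53.5 CPM in control vector. For this gene the 3 control vector libraries were close to each other and ∆GAG-BG library 1 was low, unlike TGFBR3 and HSPA5, for which control vector library 1 also stood apart. Cytosolic heat shock proteins, the stress response of the cytosol, crossed in this direction for 15 of 16 tested, beside 26.2% of all genes. Their medians were -0.44, 0.19 and 0.14. HSPA1A stood at 11.7, 13.4 and 12.1 CPM against 24.9, 8.34 and 8.77 CPM, with control vector library 1 the highest, and shares reads with its near-identical copy HSPA1B.

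**Figure D4:**
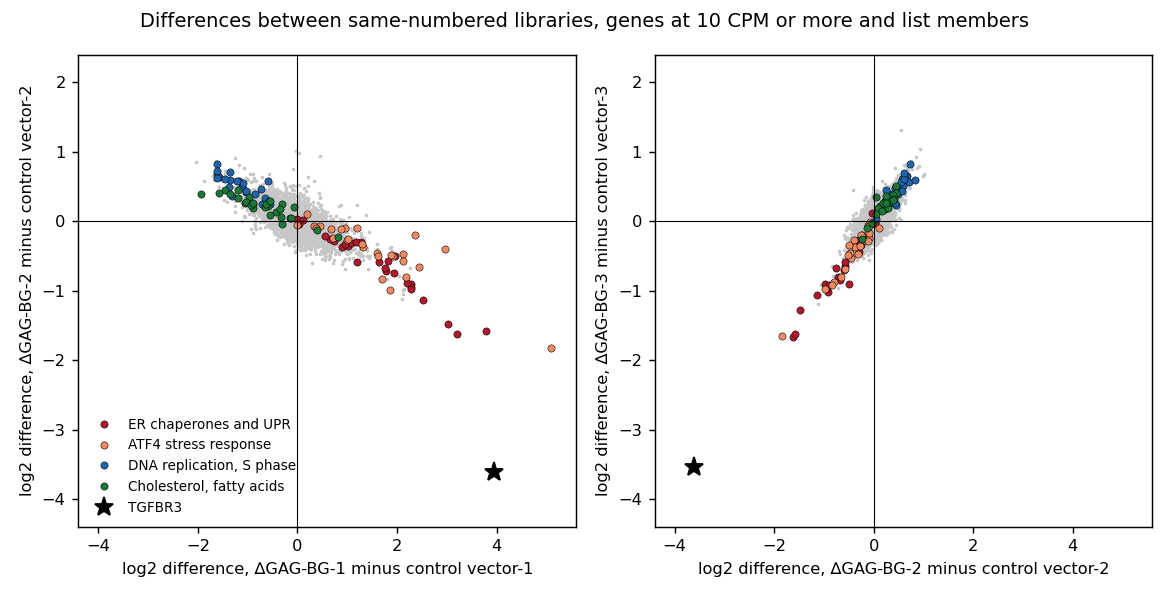
Differences between same-numbered libraries (∆GAG-BG minus control vector, log2(CPM + 1)) for genes at 10 CPM or more (grey) and 4 gene lists (coloured), numbers 1 and 2 on the left and numbers 2 and 3 on the right. On the left the ER stress genes and TGFBR3 (star) lie to the right and below 0 and the S-phase genes to the left and above 0, while on the right all lie along one diagonal.

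Libraries numbered 1 bear on these values more than the others, so the comparison was also made without them. Without ∆GAG-BG library 1, 206 genes were higher (1.24%) and 208 lower (1.25%) of 16608 at an unadjusted p under 0.05 by edgeR, and 0 after adjustment. Without the libraries numbered 1 of both groups these counts were 301 (1.84%) and 305 (1.86%) of 16371, and 1 gene had an adjusted p under 0.05 (0.00611%). That gene was TGFBR3, lower under the ∆GAG-BG label by -3.64 on the log2 scale (standard error 0.108, adjusted p = 3.03e-07 by edgeR). Of the compared groups this fit keeps only libraries 2 and 3, which were close to each other. Its standard errors and p-values therefore cannot stand for a spread between separate cultures. In the same fit 17 of the 28 ER stress genes were lower at an unadjusted p under 0.05, beside 1.86% of all genes, 5 of the 27 genes of the ATF4 response were lower, and 4 of the 26 S-phase genes were higher, beside 1.84%. Other lists had small counts in that fit too, with 4 of 24 Wnt receptors and targets and 2 of 10 histones higher, and 2 higher and 1 lower of 6 metalloproteinase inhibitors.

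Between both pairs numbered 2 and 3, 9 genes were at least 2-fold lower under the ∆GAG-BG label (0.056%) and 3 at least 2-fold higher (0.0187%). The lower ones were TGFBR3, COL3A1, DDIT3, DNAJB9, HERPUD1, HSPA5, LURAP1L, SDF2L1 and TNFSF15, of which DDIT3, DNAJB9, HERPUD1, HSPA5 and SDF2L1 are genes of ER stress. TNFSF15, a TNF-family ligand, stood at 118, 12.7 and 12.1 CPM in ∆GAG-BG and 26.7, 28.8 and 29.1 CPM in control vector. The higher ones were LBH, DCDC2 and RGCC, a regulator of the cell cycle, which stood at 1.54, 12.4 and 11.3 CPM against 5.15, 4.05 and 4.27 CPM. These genes were named after their values were seen.

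**Figure D5:**
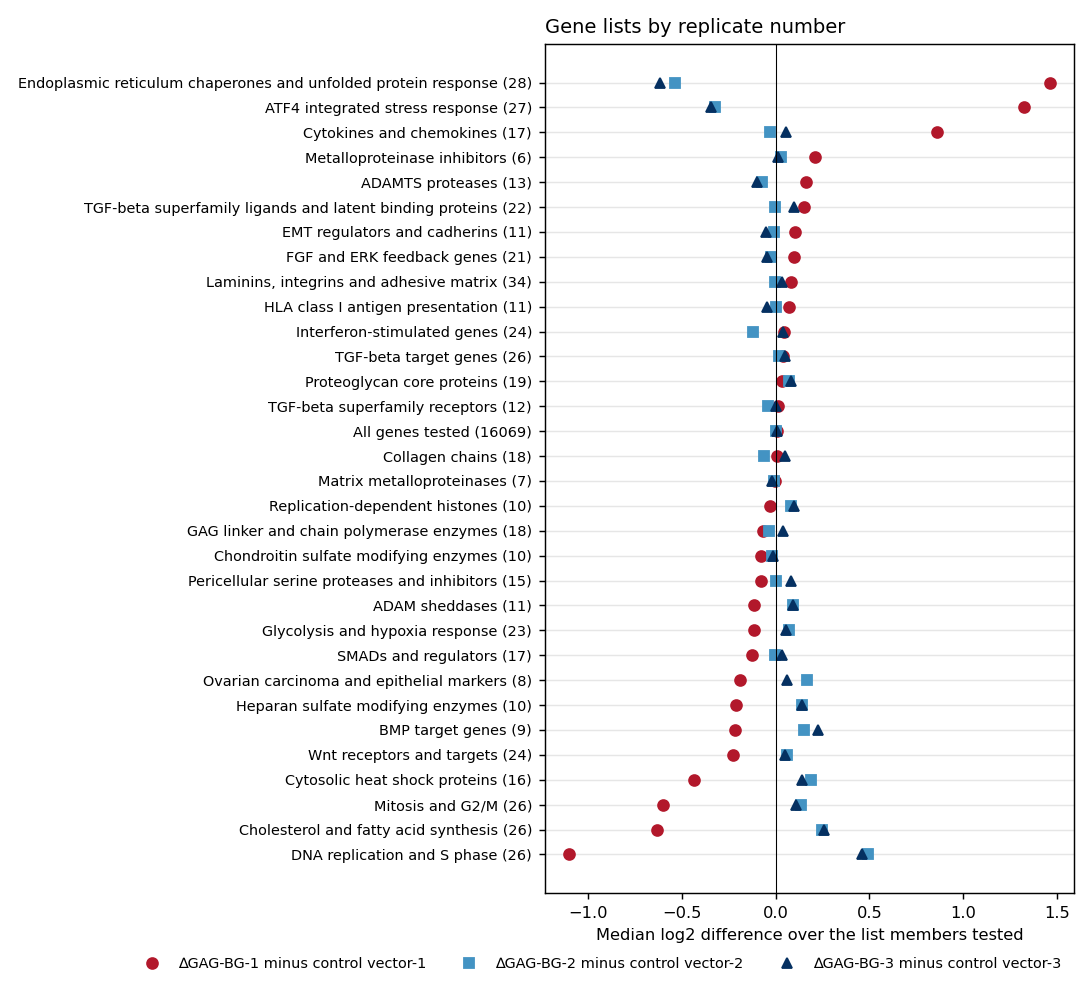
Median log2(CPM + 1) difference over the tested members of each gene list (number tested in parentheses), for the libraries numbered 1 (red circles), 2 (blue squares) and 3 (dark triangles). ER stress and ATF4 genes lie far right for number 1 and left of 0 for numbers 2 and 3, S-phase genes the reverse, and the TGF-β, protease and GAG lists lie closer to 0.

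Secreted signals differed mainly in ∆GAG-BG library 1. Of 17 cytokines and chemokines tested of 25, 6 were at least 2-fold higher between the libraries numbered 1, beside 1.26% of all genes, and none between the others, with medians of 0.86, -0.03 and 0.06. VEGFA, the endothelial growth factor, stood at 76.1, 23.6 and 24.7 CPM in ∆GAG-BG and 20.2, 31.2 and 32.1 CPM in control vector. IL1B stood at 152, 82.9 and 83.0 CPM against 83.5, 80.9 and 79.8 CPM, so that ∆GAG-BG library 1 alone stood apart. None of these genes had an unadjusted p under 0.05. Interferon-stimulated genes (24 tested of 30) and genes of HLA class I presentation (11 of 12), replication-dependent histones (10 of 15) and genes of glycolysis and hypoxia (23 of 25) also had 0 members below it. Of the genes the study used as references for qRT-PCR, RPL13A stood at 2369 to 2873 CPM over the 6 libraries, and HPRT1 at 69.4, 94.1 and 85.5 CPM against 101, 78.7 and 81.0 CPM, itself crossing in the direction of the S-phase genes.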

How the data were processed

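Of 12 HEYA8 RNA-seq libraries (4 groups, 3 each), the 3 ∆GAG-BG and 3 control vector libraries are compared. The authors deposited raw counts per gene from paired 150-base reads. The submitters' processing notes name FastQC, Trim Galore 0.4.5, STAR 2.4, SAMtools 1.2 and featureCounts, and a mouse build (mm10, GRCm38), yet 33621 of the table's 56269 genes have the coordinates of GENCODE 29 on human GRCh38. The strand setting is not given in the sources used here. The 37 mitochondrial genes hold 0 counts in every library.

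Low genes were dropped (filterByExpr, minimum count 10) and TMM factors computed. edgeR 4.0.16 under R 4.3.3 fitted its robust quasi-likelihood model to all 4 groups, which leaves 8 residual degrees of freedom, with Benjamini-Hochberg adjustment over 16069 genes. The biological coefficient of variation was 0.163. Levels are TMM-scaled CPM computed here, and differences between same-numbered libraries use a pseudocount of 1 CPM. An exact permutation test (two-sided) was added for TGFBR3 and TIMP3. The gene tests were tested on simulated data, where DESeq2 1.42.0 called 90.5% of the 200 changed genes with 26 false calls and edgeR 85.0% with 6. Those data held no shift of library 1, and no gene with low counts was changed.

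The members and the 37 gene lists (676 genes, written by hand) were chosen with earlier results of these data known. Genes named were TGFBR3, TIMP3, the other genes the study names for this experiment and its reference genes; the 12 higher and 12 lower genes with the smallest unadjusted p; up to 4 members of each list by p; and, at 10 CPM or more, 10 genes in each direction with the largest smallest-of-3 difference, of opposite or equal sign. Other list members are named as examples, after their values were seen, and some items are not reported here. Alternatives were DESeq2, RLE factors, library size alone, other filters, limma 3.58.1 (voom, or quantile-normalized values), only the 6 libraries, the replicate block, libraries left out, and libraries 2 and 3 summed. Promoters are from RefSeq and the coding stretch from GENCODE 29.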

Additional observations from a re-analysis of the deposited data

How the results depend on the processing

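No gene passed adjustment in any setting but 1. Without the libraries numbered 1 of both groups, 1 gene did (TGFBR3). Higher genes at an unadjusted p under 0.05 numbered 98 by edgeR, 51 by DESeq2, 284 with no filter on low counts, 301 without the libraries numbered 1 and 43 with libraries 2 and 3 summed. Lower genes numbered 42 by edgeR, 24 by DESeq2, 144 with no filter, 64 by limma on quantile-normalized values, 305 without the libraries numbered 1, 79 without S534A library 2 and 27 with libraries 2 and 3 summed. Leaving out 1 library of the compared groups gave 90 to 206 higher and 43 to 208 lower genes, both highest without ∆GAG-BG library 1, and without the libraries numbered 3 lower genes numbered 41. With libraries summed or left out, fewer libraries were fitted, and the counts moved both ways. The cause of these shifts was not tested. Deviations from the group means had correlations of -0.16, -0.13 and -0.10 between same-numbered libraries. Library 1 stood apart in each group, so these values cannot tell whether same-numbered libraries were prepared together. With the replicate block the counts were 118 and 58, TGFBR3 was -1.32 and TIMP3 0.53.

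The log2 fold change of TGFBR3 changed sign without the libraries numbered 2 (0.0327), without those numbered 3 (0.0275) and with libraries 2 and 3 summed (0.0236), was -3.10 with an unadjusted p of 0.00437 by edgeR without ∆GAG-BG library 1 and -3.64 without those numbered 1, and ran from -3.10 to -0.34 with 1 library left out. DESeq2 gave no p for it (-0.82). TIMP3 ran from 0.43 to 0.68 with 1 library left out, was 0.83 without the libraries numbered 1, and lost its unadjusted p under 0.05 without ∆GAG-BG library 2 or 3 or control vector library 2 or 3, without the libraries numbered 2 (0.39) or 3 (0.35), and with libraries 2 and 3 summed (0.37). Of the 24 genes with the smallest p, 429 of their values under alternatives stayed under 0.05, 36 did not, and 0 changed direction. They were picked by p in these same libraries, so this is a description and no support for them. With at least 10 counts in every library only 15 of the 24 were fitted. Without the libraries numbered 1, 2 or 3, 8, 9 and 8 of the 24 were no longer under 0.05. At 3 libraries a group and under 10 CPM, a 2-fold difference can be missed.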
